A study of Rattus norvegicus with 3 samples.

Results

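In irradiated rat soleus that had lost its nerve or its load, follistatin was higher and myostatin lower than in soleus that was irradiated alone. The other 5 measured genes of the set lay within 1.5-fold, as most genes did. Of 10154 genes compared, 9091 lay within it after loss of the nerve and 9284 after loss of load. Myostatin, follistatin and bone morphogenetic protein (BMP) signalling was described here by 8 genes listed by name: the ligands Mstn, Bmp4 and Gdf5, the antagonist Fst, the receptor Acvr2b, and the intracellular Smad2, Smad3 and Smad7. Each gene was taken from probe sets annotated with its symbol alone. Of the 8, 7 had such a probe set, 1 each, out of 14506 genes so named, and Gdf5 was not analysed here.

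The muscle came from rats labelled as strain Brown, 7 weeks old, all irradiated continuously over 2 weeks to 50 mSv in total. Group DN was denervated and irradiated, group TS was suspended by the tail, which takes the load off the hind limbs, and irradiated, and group Ct was irradiated alone. Each group had 6 rats, whose total RNA was combined into a single pool and read on 1 Affymetrix Rat Gene 1.0 ST array, so each group is 1 value per gene. No spread between rats was measured, no test could be made, and no group analysed here was free of irradiation. Differences are therefore given as differences of log2 values (a difference of 1 is 2-fold) and describe these 3 pools.

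Myostatin (Mstn) is a secreted factor of the transforming growth factor beta family that limits muscle mass. It binds activin type II receptors such as Acvr2b, whose partner type I receptors phosphorylate Smad2 and Smad3. Follistatin (Fst) binds activins and myostatin and keeps them from the receptor. BMP ligands such as Bmp4 and Gdf5 act through Smad1, Smad5 and Smad9, a branch that in mice favours muscle mass after denervation. Smad7 is an inhibitory Smad that the pathway itself induces.

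All 7 measured members lay above the limit set for dim genes (5.72, the 30th percentile of genes by their mean over the arrays) on every array, among 10154 genes that did so by that mean. Array medians over all probe sets lay between 6.32 and 6.35. Over the compared genes the array median was 0.13 higher in TS than in Ct and 0.01 higher in DN than in Ct. The method that summarised the probes can give 2 arrays exactly equal values, as it did for 42.9% of compared genes on DN and Ct, 24.7% on TS and Ct and 26.3% on DN and TS, so equal values leave a real difference possible. The 8 markers of soleus muscle fibres included the slow myosin gene Myh7 and the slow troponin gene Tnnt1. They averaged 12.80 in DN, 13.11 in TS and 13.40 in Ct, where the brightest probe set of an array read 13.90 to 13.99. Of the 8, 3 were at least 1.5-fold lower in DN, against 5.53% of all compared genes, and 1 in TS, against 2.68%.

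Follistatin was highest in denervated muscle. Fst read 10.34 in DN and 8.70 in TS, against 7.61 in Ct. The values were ordered DN, TS, Ct, with DN 2.72 above Ct, or 6.60-fold, and TS 1.08 above Ct, or 2.12-fold. Only 28 of the 10154 compared genes, Fst included, were as far above Ct in DN, and 103 were as far above it in TS. Fst in DN was also 1.64 above TS, a 3.11-fold difference that 45 genes reached. Rescaling the arrays in several ways moved these 3 differences only between 2.54 and 2.73, between 0.95 and 1.08, and between 1.57 and 1.76. In a bulk sample of muscle, more cells of a type that makes follistatin and more of its RNA per cell cannot be told apart.

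**Figure D1:**
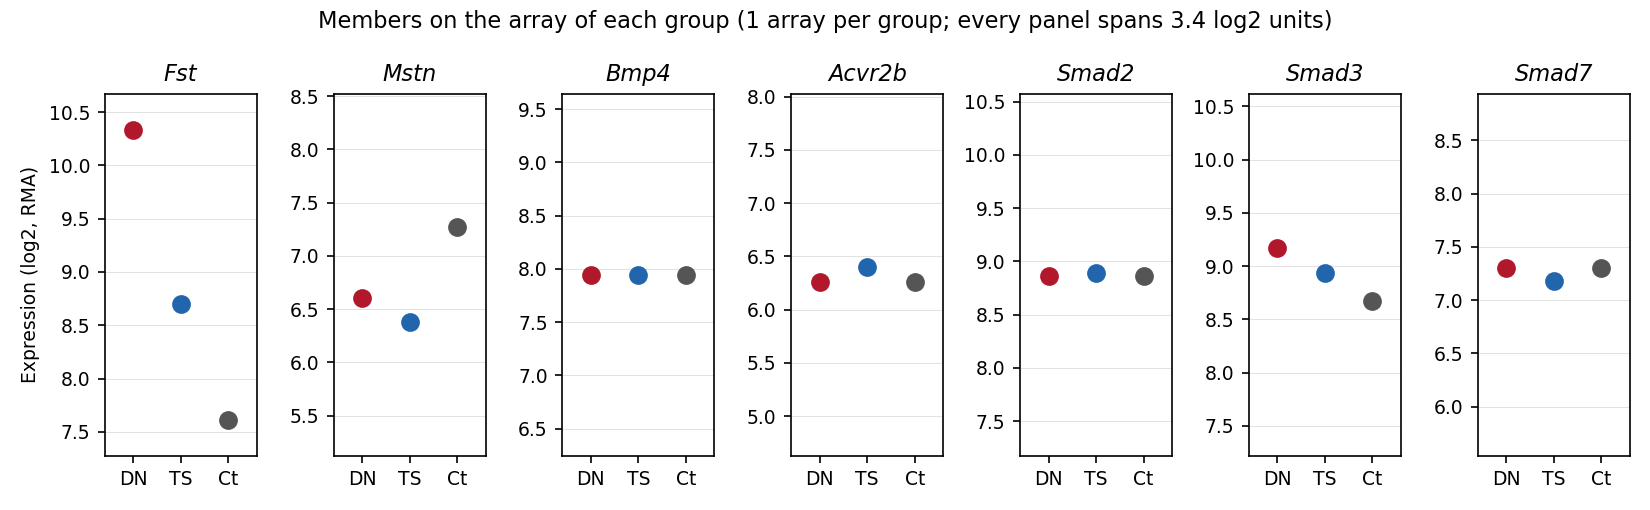
Log2 expression of the 7 measured members (vertical axes, each spanning the same number of log2 units around its own gene) on the DN, TS and Ct arrays, 1 point per array and no error bars because there was 1 array per group. Fst is highest in DN and lowest in Ct, Mstn is lowest in TS and highest in Ct, and Bmp4 has the same value on every array.

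Myostatin was lower in both groups. Mstn read 6.61 in DN and 6.38 in TS, against 7.27 in Ct. It stood at -0.66 in DN, 1.58-fold lower than Ct, and at -0.89 in TS, 1.85-fold lower. In DN 480 compared genes were at least as far below Ct, whereas in TS only 106 were. DN and TS lay closer to each other than to Ct, 0.23 apart with DN the higher. The gene was read not far above the dim limit, and adding 32 to each value on the linear scale, which dampens dim signals, brought DN to -0.53, short of 1.5-fold, and TS to -0.69. Mstn thus ran opposite to its antagonist in both groups, but its larger difference was in TS and that of Fst in DN.

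Genes with differences most like those of each were sought by the distance between their pairs of differences (DN minus Ct, TS minus Ct), over the 3 arrays. Nearest to Fst was Musk, a receptor kinase of the neuromuscular junction, with 2.57 in DN and 1.05 in TS, 0.15 log2 units away. Gstm2, Lipg, Sncg and Adcy2 followed at distances of 0.33 to 0.39. Nearest to Mstn were Ndufb9, a subunit of respiratory complex I, with -0.68 in DN and -0.86 in TS, then Akr1b10, Tpi1l1, Slc47a1 and Myoz2, a Z-disc protein of slow fibres, all within 0.08. With 3 arrays such likeness is only a description.

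The BMP ligand among the measured members was level across the groups. Bmp4 read 7.95 in DN, TS and Ct alike, an exact tie on all 3 arrays. Ties of this kind are common here, so the value shows no difference and sets no limit on one. Among the other BMP ligands, Gdf6, a close relative of Gdf5, read 7.72 in DN and 6.62 in TS, against 6.61 in Ct. It was 1.11 above Ct in DN and 0.01 above it in TS.

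The receptor gene differed little. Acvr2b, an activin type II receptor that binds myostatin, read 6.26 in DN and 6.40 in TS, against 6.26 in Ct. DN and Ct were tied, and the 0.14 by which TS exceeded Ct shrank to 0.00 when each array was centred on its median. The related type II receptor Acvr2a read 9.23 on all 3 arrays.

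Of the 3 Smad members Smad3 differed most from Ct, and it stayed short of 1.5-fold. Smad3, which carries the myostatin and activin signal to DNA, read 9.17 in DN and 8.93 in TS, against 8.67 in Ct. Its values were ordered as those of Fst, 0.50 above Ct in DN (1.42-fold) and 0.26 above it in TS (1.20-fold), and in DN 597 genes were at least as far above Ct. Smad2, its partner in the same branch, read 8.86 in DN and 8.89 in TS, against 8.86 in Ct. DN was tied with Ct, and the TS difference of 0.03 changed sign under some scalings, from -0.10 to 0.03. Smad7, the inhibitor, read 7.30 in DN and 7.18 in TS, against 7.30 in Ct, so that TS stood at -0.12 and DN was tied with Ct.

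The Smad3 promoter is shown because Smad3 was the Smad member with the largest difference. Promoter sequences came from RefSeq on the GRCr8 assembly, from 250 bases before to 50 after an annotated start, and 5 of the 8 members had an entry: Acvr2b, Smad2, Smad3, Smad7 and Bmp4. Mstn, Fst and Gdf5 had none in the table used. On both strands 3 motifs were searched: the E-box CAGCTG, which myogenic factors can bind, the Smad-type box GTCTG or its reverse complement CAGAC, and the GC-rich box GGCGCC, which Smads of the BMP branch can bind. Of all 33469 promoters in that table, 15.1% held CAGCTG, 50.1% the Smad-type box and 11% GGCGCC. In the sequence below, 5′ to 3′ (chr8:73132275-73132574, minus strand), capitals mark the GGCGCC match, at bases 18 to 23 after the start. GGCGCC was not particular to Smad3, as Smad2 and Smad7, both tied with Ct in DN, held it too. Smad7 had 2 matches, and the overlapping promoters of Smad2 had 2 and 1. The Bmp4 promoter, not printed, held 1 CAGCTG, at -184 to -179, and 2 Smad-type boxes. Acvr2b held none of the motifs.
Smad3 promoter: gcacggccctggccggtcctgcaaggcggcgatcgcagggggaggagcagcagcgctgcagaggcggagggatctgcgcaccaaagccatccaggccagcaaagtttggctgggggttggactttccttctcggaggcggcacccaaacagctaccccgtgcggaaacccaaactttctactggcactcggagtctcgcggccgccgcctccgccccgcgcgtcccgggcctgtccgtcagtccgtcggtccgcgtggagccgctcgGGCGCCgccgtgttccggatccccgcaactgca

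Counted at 1.5-fold, the members that differed from Ct were Fst and Mstn in both comparisons. In DN, 1 of 7 members was higher, against 4.93% of all compared genes, and 1 was lower, against 5.53%. In TS, 1 of 7 was higher, against 5.89%, and 1 was lower, against 2.68%. Fst alone was past 1.5-fold between DN and TS, higher in DN, where 3.20% of all genes were higher and 5.93% lower. A share of 7 genes is too coarse to set against these percentages, and the 2 comparisons with Ct use the same Ct array. The median member stood at 0.00 in DN and 0.03 in TS, beside medians of 0.00 and 0.02 over all compared genes. Centring the arrays turned the TS split over all genes to 357 higher and 400 lower, in place of 598 and 272, and the split between DN and TS to 470 higher and 382 lower, in place of 325 and 602. It takes 0.13 off every difference of TS from Ct, ties included, though the median of those differences was 0.02.

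**Figure D2:**
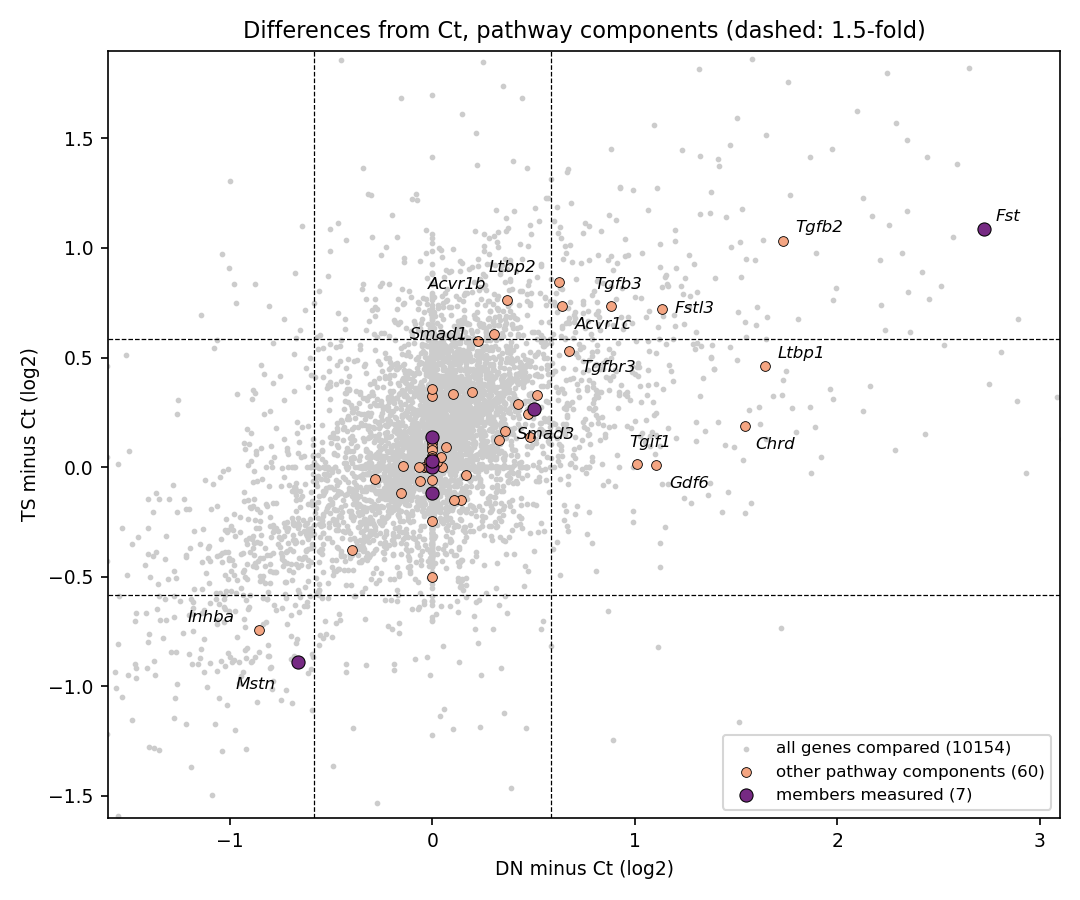
Difference DN minus Ct (horizontal, log2) against TS minus Ct (vertical, log2) for the measured members, the other pathway components and all compared genes, with dashed lines at 1.5-fold and 114 genes beyond the axes. Both axes subtract the same Ct array. Fst lies far to the right at 2.72 and 1.08, and Mstn and Inhba lie at the lower left.

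The wider pathway was described from 8 lists of its components by role, 92 genes with the members, of which 78 were measured and 67 passed the limit for dim genes. Of the 67, 1 gene had an array below that limit (Bmp3, named after its values were seen). In DN 11 of the 67 were at least 1.5-fold higher and 2 lower, where 4.93% of all compared genes were higher and 5.53% lower. In TS 8 of the 67 were higher and 2 lower, where 5.89% of all compared genes were higher and 2.68% lower. The components' share of higher genes was thus above that of all genes in both groups, a description of lists chosen with results known and not a test, while the lower ones were too few to read. Their medians, 0.00 in DN and 0.03 in TS, were close to those of all compared genes, and 25 of the 67 were tied between DN and Ct. Between DN and TS, 6 of the 67 were higher in DN and none was lower, whereas over all compared genes 3.20% were higher and 5.93% lower in DN. Centring the arrays turned that split over all genes, as given above, and made the components 7 higher and none lower.

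Among ligands of the activin, myostatin and transforming growth factor beta branch, members went both ways in both groups. Of 10 compared, 2 were higher and 2 lower than Ct in DN, and again in TS, beside the shares over all genes just given. The 2 lower genes were Mstn and Inhba, and with 32 added on the linear scale Mstn in DN and Inhba in TS (-0.55) fell short of 1.5-fold. Tgfb2 read 10.54 in DN and 9.84 in TS, against 8.81 in Ct, differences of 1.73 and 1.03. Tgfb3 stood 0.88 above Ct in DN and 0.74 in TS. Both encode growth factors that signal through Smad2 and Smad3 and are known for driving matrix production. Inhba, which encodes the activin A subunit that follistatin binds, read 6.02 in DN and 6.13 in TS, against 6.88 in Ct, so that it stood at -0.86 and -0.74, beside Mstn. Gdf11, the closest relative of myostatin, read 7.09 on all 3 arrays. Of 9 BMP ligands compared, Gdf6 in DN was the 1 gene past 1.5-fold in either group, and Gdf10, at 0.52 in DN and 0.33 in TS, came next. Gdf10 read 5.74 in Ct, close to the dim limit, and under other settings its differences were as low as 0.345 in DN and 0.20 in TS.

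Each branch had an antagonist that was higher in DN than in Ct by over 1.5-fold. Of 4 activin and myostatin antagonists compared, Fst and Fstl3 were at least 1.5-fold higher in DN and in TS, and none was lower. Over all compared genes 4.93% were that much higher and 5.53% lower in DN, and 5.89% and 2.68% in TS. Fstl3, a follistatin relative that binds myostatin and activin in the circulation, read 8.58 in DN and 8.17 in TS, against 7.45 in Ct. Its differences were 1.13 and 0.72, in the same order as those of Fst. Wfikkn1, another myostatin-binding protein, was tied on all 3 arrays, and Dcn, a matrix proteoglycan, stood at 0.14 in DN and -0.15 in TS. Of 8 BMP antagonists, Chrd in DN was the 1 gene past 1.5-fold, and none was past it in TS. Chrd, which encodes the BMP-binding protein chordin, read 8.66 in DN and 7.30 in TS, against 7.11 in Ct, differences of 1.55 and 0.19. Chrdl2, a chordin relative, stood at 0.00 in DN and -0.50 in TS, and its TS value, between -0.64 and -0.43 over 6 settings, was past 1.5-fold in 2 of them.

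The promoters of Chrd and Fstl3 are shown because these antagonists, with Fst, were the ones past 1.5-fold in DN. Capitals mark the same 3 motifs. That of Chrd (chr11:93685051-93685350, minus strand) held a GGCGCC, at -203 to -198, a CAGCTG at bases 3 to 8 after the start, and a GTCTG at bases 8 to 12, the last pair sharing the base at 8. That of Fstl3 (chr7:10579795-10580094, minus strand) held GTCTG at -160 to -156 and at -13 to -9 and neither of the other motifs.
Chrd promoter: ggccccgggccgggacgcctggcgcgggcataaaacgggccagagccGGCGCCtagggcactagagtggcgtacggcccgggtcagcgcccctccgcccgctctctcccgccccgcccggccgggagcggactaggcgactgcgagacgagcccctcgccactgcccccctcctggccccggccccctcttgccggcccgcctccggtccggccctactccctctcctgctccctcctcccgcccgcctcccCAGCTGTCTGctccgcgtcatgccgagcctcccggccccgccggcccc
Fstl3 promoter: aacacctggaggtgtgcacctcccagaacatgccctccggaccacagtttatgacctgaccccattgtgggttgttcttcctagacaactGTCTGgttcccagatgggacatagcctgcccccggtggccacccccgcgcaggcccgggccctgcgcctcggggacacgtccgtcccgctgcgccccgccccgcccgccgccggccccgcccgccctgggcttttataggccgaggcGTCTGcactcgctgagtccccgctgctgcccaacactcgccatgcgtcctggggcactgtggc

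Among 7 genes of ligand processing and latency, 2 were at least 1.5-fold higher in DN, against 4.93% of all compared genes, and 1 in TS, against 5.89%. None was lower by that much, against 5.53% of all genes in DN and 2.68% in TS. Ltbp1, which encodes a matrix protein that holds latent transforming growth factor beta, read 10.30 in DN and 9.12 in TS, against 8.66 in Ct, differences of 1.64 and 0.46. Ltbp2, a relative that does not bind the latent growth factor in the same way, stood 0.63 above Ct in DN, past 1.5-fold in 5 of 6 settings, and 0.84 in TS. Ltbp4 ran the other way, at -0.40 in DN and -0.38 in TS. Furin, the convertase that cleaves these precursors, stood 0.22 above Ct in DN and 0.58 in TS, just under 1.5-fold.

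**Figure D3:**
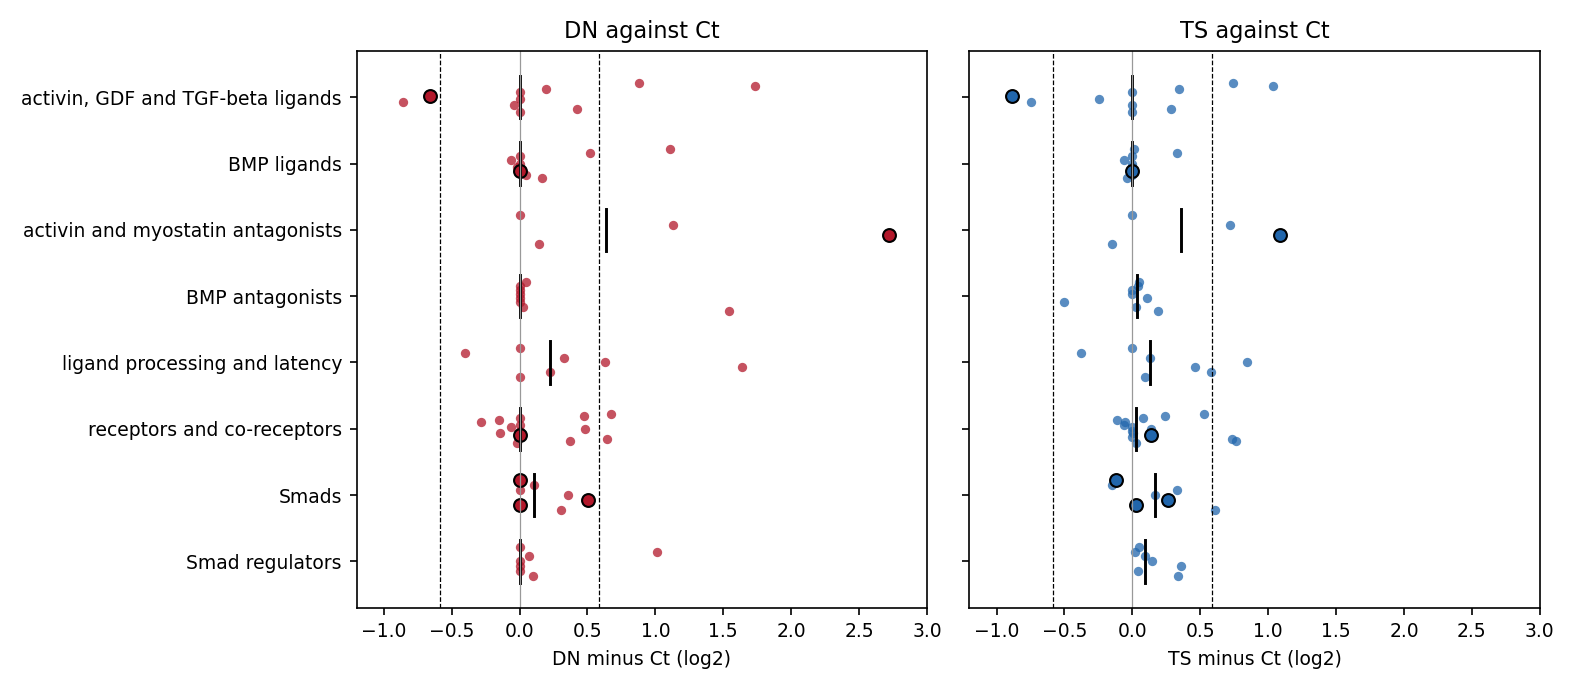
Differences from Ct (horizontal axes, log2) of the compared pathway genes by role, for DN on the left and TS on the right; outlined points are members, black bars are list medians and dashed lines mark 1.5-fold. The point furthest right in both panels is Fst, among the activin and myostatin antagonists, and the median bars of the ligand lists lie at 0.00.

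No receptor or Smad compared was as much as 2-fold different from Ct in either group, which is not particular to them. Of all 10154 compared genes, only 227 were 2-fold higher and 227 lower in DN, and 139 and 70 in TS. Of 15 receptors and co-receptors, 2 were at least 1.5-fold higher in each group and none lower. The shares over all compared genes were 4.93% higher and 5.53% lower in DN, and 5.89% and 2.68% in TS. Acvr1c, a type I receptor of the activin branch, read 6.42 in DN and 6.51 in TS, against 5.78 in Ct, close to the dim limit, and was past 1.5-fold in 5 of 6 settings in each group. Tgfbr3, a co-receptor that presents ligand, stood 0.67 above Ct in DN and 0.53 in TS. Acvr1b, a type I receptor of myostatin and activin, stood 0.37 above Ct in DN and 0.76 in TS. The BMP type I receptor Bmpr1a stood at 0.48 in DN and 0.14 in TS, and Tgfbr1, the type I receptor of transforming growth factor beta, at 0.47 in DN and 0.24 in TS. Among 7 Smads no gene passed 1.5-fold in DN and Smad1, a carrier of the BMP signal, did in TS. Smad1 read 8.90 in DN and 9.20 in TS, against 8.59 in Ct. Its TS difference of 0.61 was 0.47 at the lowest under other scalings. It was past 1.5-fold in 2 of 6 settings, as deposited and with the mean of probe sets. These 2 are the same value, as Smad1 had 1 probe set. Smad4, the shared partner of all signalling Smads, stood at 0.36 in DN and 0.16 in TS, and Smad5, a further carrier of the BMP signal, at 0.00 in DN and 0.32 in TS. Of 7 Smad regulators only Tgif1, a corepressor that binds Smad2 and Smad3, was past 1.5-fold, with 9.22 in DN and 8.23 in TS, against 8.21 in Ct.

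In DN the known target genes of the BMP branch went both ways. In TS the 7 compared ran from -0.56 to 0.00, none above Ct. Their TS median was -0.15, beside 0.02 over all compared genes. Id1, which encodes an inhibitor of helix-loop-helix factors and is a direct target of BMP Smads, read 8.66 in DN and 9.10 in TS, against 9.66 in Ct. It stood at -0.995 in DN and -0.56 in TS, and the TS value was past 1.5-fold under 3 of 6 settings. Its relative Id2 was 0.60 above Ct in DN, past 1.5-fold in 5 of 6 settings, and tied with Ct in TS. Id3 stood at 0.15 in DN and -0.09 in TS, and Id4 at 0.16 in DN and -0.27 in TS. Of 7 BMP targets compared, 1 was thus higher and 1 lower in DN, against 4.93% and 5.53% of all compared genes. None was past 1.5-fold in TS, where 5.89% of all genes were higher and 2.68% lower. Smad6, the inhibitory Smad of the BMP branch, stood at 0.11 in DN and -0.15 in TS, and Hamp at 0.00 and -0.22.

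The Id1 promoter (chr3:161671314-161671613, plus strand) is shown because Id1 was the target furthest below Ct in DN. Of the 3 motifs it held 1, CAGAC at bases 24 to 28 after the start, in capitals.
Id1 promoter: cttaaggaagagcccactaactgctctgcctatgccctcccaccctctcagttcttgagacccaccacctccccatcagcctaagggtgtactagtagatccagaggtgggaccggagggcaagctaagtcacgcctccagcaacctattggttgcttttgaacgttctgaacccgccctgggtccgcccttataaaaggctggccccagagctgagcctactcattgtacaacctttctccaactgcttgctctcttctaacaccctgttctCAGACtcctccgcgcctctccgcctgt

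Target genes of the activin and transforming growth factor beta branch that were past 1.5-fold were all higher than Ct. Of 7 compared, 3 were at least 1.5-fold higher in DN, against 4.93% of all compared genes, and 2 in TS, against 5.89%. None was lower by that much, against 5.53% of all genes in DN and 2.68% in TS. Cdkn1a, the cell cycle inhibitor p21, which answers to many other signals as well, stood 3.95 above Ct in DN and 2.21 in TS. Postn, the matrix protein periostin, stood 0.80 above Ct in both groups, and Cdkn2b, a cell cycle inhibitor, 0.77 above it in DN and level with it in TS. Ccn2, a matricellular protein gene widely used as a readout of this branch, stood at 0.32 in DN and 0.04 in TS, and Tgfbi, which encodes a matrix protein, at 0.14 in DN and 0.51 in TS. The other two, named after their values were seen, were collagen genes and the 2 of the list below Ct in DN: Col1a1 stood at -0.23 in DN and 0.00 in TS, and Col1a2 at -0.08 in DN and 0.02 in TS.

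Of 6 muscle genes listed as downstream of Smad signalling, 4 were at least 1.5-fold higher in DN, against 4.93% of all compared genes, and 3 in TS, against 5.89%. None was lower by that much, against 5.53% of all genes in DN and 2.68% in TS. With 6 genes, chosen with results known, these counts are a description. Fbxo30, a ubiquitin ligase that BMP signalling restrains in mouse muscle, read 10.31 in DN and 9.38 in TS, against 9.22 in Ct. Hdac4, a histone deacetylase that relays loss of the nerve and represses genes, read 9.12 in DN and 8.12 in TS, against 7.80 in Ct. Fbxo30 stood 1.09 above Ct in DN and 0.16 in TS, and Hdac4 1.32 in DN and 0.33 in TS. Among the ligases of atrophy, Fbxo32 stood at 0.13 in DN and 0.65 in TS, past 1.5-fold in 5 of 6 settings, and Trim63 at 0.31 in DN and 0.55 in TS. The myogenic transcription factor gene Myod1 stood 3.44 above Ct in DN and 1.92 in TS, and Myog 1.86 in DN and 1.42 in TS.

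**Figure D4:**
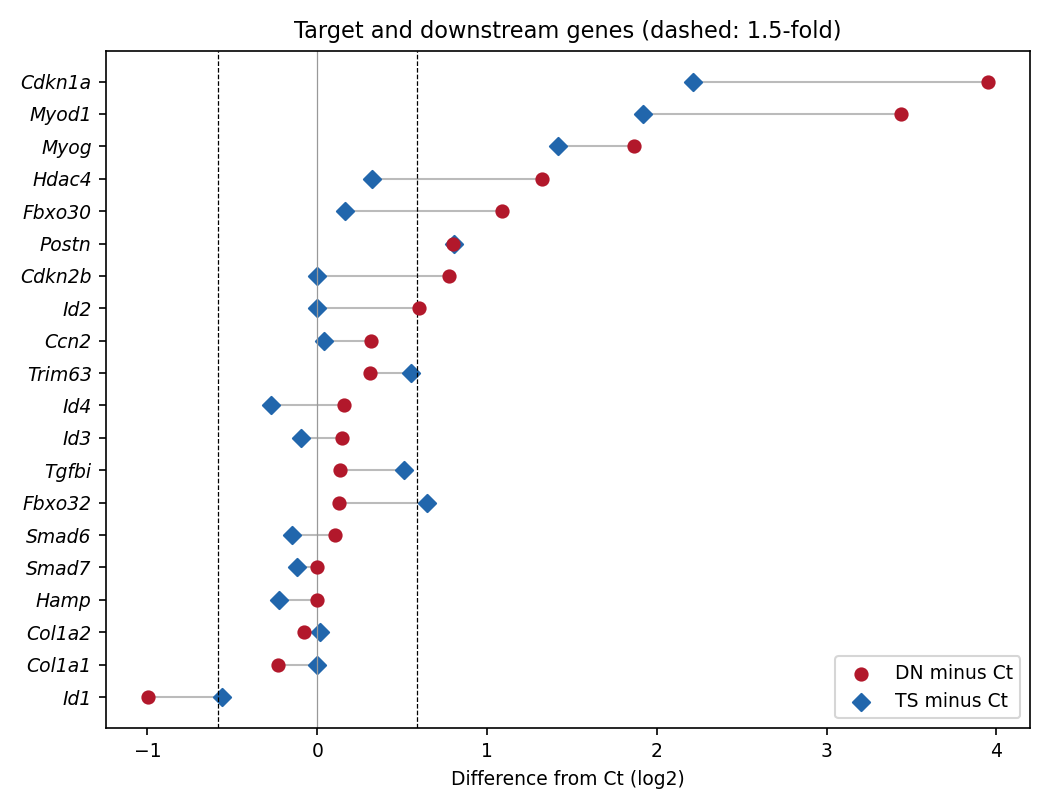
Differences from Ct (horizontal axis, log2) of 20 target and downstream genes, with DN as circles and TS as diamonds joined by a line for each gene and dashed lines at 1.5-fold. Id1 is the lowest in both groups, and Fbxo30 and Hdac4 are past 1.5-fold in DN and inside it in TS.

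Set directly against each other, DN and TS differed by 1.5-fold in 6 of the 67 components, all higher in DN: Fst (1.64), Chrd (1.36), Ltbp1 (1.18), Gdf6 (1.10), Tgif1 (0.996) and Tgfb2 (0.70). Of the 6, Chrd, Gdf6 and Tgif1 lay within 0.19 of Ct in TS. Over all compared genes, 3.20% were 1.5-fold higher and 5.93% lower in DN than in TS. Mstn, at 0.23, and Inhba, at -0.11, lay well within 1.5-fold between the groups.

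**Figure D5:**
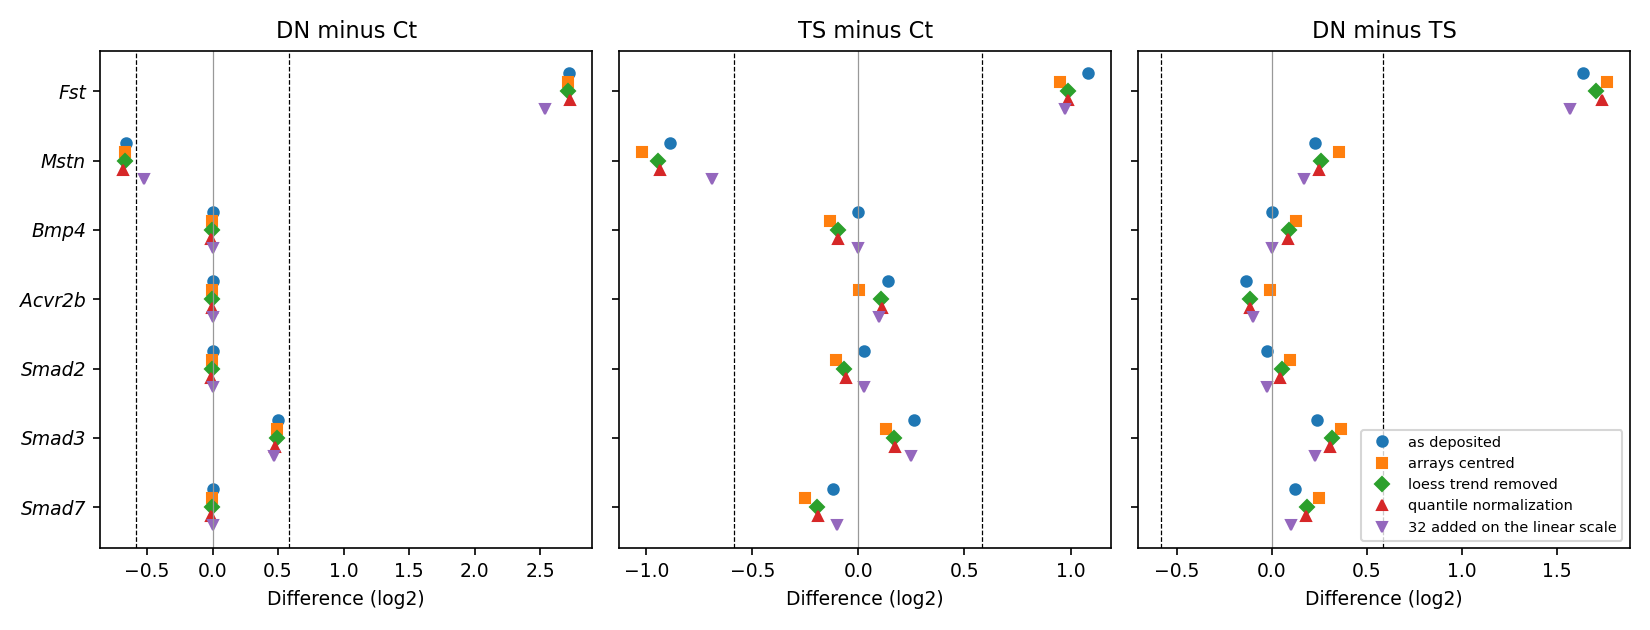
Differences of the 7 measured members (horizontal axes, log2) for DN over Ct, TS over Ct and DN over TS under the deposited scaling and 4 alternatives, with dashed lines at 1.5-fold. Fst is past 1.5-fold in every panel and setting, whereas Mstn in DN is inside the line with 32 added on the linear scale, at -0.53.

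Markers of other cells in the tissue are given beside these results, by lists on a scale that has no zero. The shares of all compared genes at least 1.5-fold from Ct were 4.93% higher and 5.53% lower in DN, and 5.89% and 2.68% in TS. Fibroblast markers had a median of 0.00 in both groups, with none of 7 past 1.5-fold in DN and Pdgfra (0.81) higher in TS; their mean level was 10.36 in DN, 10.38 in TS and 10.29 in Ct. Tendon markers had a median of -1.18 in DN and -0.75 in TS, with 4 of 7 lower and 1 higher in each group, and averaged 8.48 in DN, 8.51 in TS and 9.16 in Ct. Adipocyte markers had a median of 0.90 in DN and 0.84 in TS, with 3 of 6 higher, and averaged 8.77 in DN, 8.62 in TS and 7.86 in Ct. Satellite cell markers had a median of 0.05 in DN and -0.002 in TS. They averaged 9.38 in DN, 9.10 in TS and 8.99 in Ct, with Myf5 and Itga7 the 2 of 6 higher in DN and in TS and Chodl lower in TS. Macrophage markers averaged 8.78 in DN, 9.22 in TS and 8.56 in Ct, with none of 7 past 1.5-fold in DN and 3 higher in TS. Endothelial markers averaged 9.32 in DN, 9.49 in TS and 9.79 in Ct, with 2 of 6 lower in DN and 1 in TS. Schwann cell markers averaged 6.92 in DN, 7.14 in TS and 6.93 in Ct, with none of 4 past 1.5-fold in DN and 1 higher in TS. The markers named here were picked after their values were seen. The part of such cells in the differences of Fst, Mstn and the other genes was not tested.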

How the data were processed

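The authors deposited log2 expression values. Per the labels, these are RMA values of a core-exon analysis in Expression Console, which the submitters' processing notes name too; RMA corrects background, normalizes arrays together and summarises each probe set by median polish. The sources used here give neither the base of the logarithm nor a tool version, annotation or build, and base 2 was assumed from the range of values. The series text speaks of fewer arrays than the 3 samples used.

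Gene names came from the platform annotation: 15310 of 29170 probe sets had 1 symbol, 323 several and 13537 none, and the last 2 kinds were left out. A gene took its brightest probe set by the mean of 3 arrays. Genes at or above the 30th percentile of that mean were compared by differences of log2 values, without a p-value. The limit was 1.5-fold. The members, lists, limits and the rule for named genes (members, up to 4 genes per list and comparison, stated partners, and the 5 nearest genes) were chosen with earlier results of these data known. The counting was tested on simulated data that, unlike these arrays, held no tied values, so its behaviour with ties was not tested. Alternatives were centring, quantile normalization, a loess trend removed (span 0.3), 32 added on the linear scale, the mean of probe sets, other limits and other filters. Counts out of 6 settings take the deposited values and the first 5 of these. Each gene given such a count had 1 probe set, so the mean of probe sets repeats its deposited value. Python 3.11.15, numpy 2.4.6, pandas 2.3.3, statsmodels 0.14.6 and matplotlib 3.10.9 were used. The number of arrays limits the precision.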

Additional observations from a re-analysis of the deposited data

How the results depend on the processing

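With 1 array per group, whether another pool would give the same differences cannot be known from these data. Fst kept its sign and stayed past 1.5-fold under all 5 rescaling or probe set alternatives in each of the 3 comparisons, and Mstn in TS did so too. Mstn in DN fell short with 32 added, which left 1 member past the limit in place of 2. At a 2-fold limit 1 member was past it in DN and 1 in TS, Fst in both. A filter at the 50th percentile, which drops Mstn and Acvr2b, also gave 1 and 1. At 2-fold, pathway components past the limit numbered 7 in DN and 2 in TS, all higher. Over all 10154 compared genes, 227 were then higher and 227 lower in DN, and 139 and 70 in TS. At a lower limit of 0.32 log2 units the components numbered 22 in DN (19 higher, 3 lower), in place of 13. In TS they numbered 20 (16 higher, 4 lower), in place of 10, and between DN and TS 13 (9 higher, 4 lower), in place of 6. Over all genes that limit gave 986 higher and 972 lower in DN, and 1764 and 672 in TS. Between DN and TS it gave 721 and 1704. With 32 added the components numbered 10 in DN (9 higher, 1 lower) and 7 in TS (6 higher, 1 lower). Over all compared genes 438 were then higher and 499 lower in DN, and 450 and 234 in TS. With the 50th percentile filter 9 of 45 components were past the limit in DN and 7 in TS, all higher, in place of 2 lower in each. Over all genes left by it, 414 were higher and 504 lower in DN, and 478 and 237 in TS. Centring moved the members' median to -0.10 for TS against Ct and 0.25 for DN against TS, in place of 0.03 and 0.12; it shifts TS by a constant. Of 105 values of single members under alternatives, 86 moved by less than the median disagreement between probe sets of a gene (0.03 between DN and Ct, 0.11 between TS and Ct, 0.09 between DN and TS), 19 moved by more, and no difference past 1.5-fold changed sign. Members had 1 probe set each, so no member could be checked against a further one. The mean of probe sets, 1 of the 5 alternatives, therefore returned each member's deposited value. Its values are among the 86 by construction. No paired analysis was possible because each group has 1 array.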
